A study of Homo sapiens with 18 samples.

Results

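The cytosolic ribosomal protein genes encode the protein shell of the ribosome that makes cellular proteins outside mitochondria. They were taken by symbol: RPL or RPS followed by a number, together with RPSA and the stalk genes RPLP0, RPLP1 and RPLP2, without pseudogenes and without the RPS6K kinases. The rule covered 87 genes of the human RefSeq gene table, of which 76 were measured among the 13712 genes tested. They comprised 40 genes of the large subunit, 25 of the small subunit, the stalk genes RPLP1 and RPLP2, and 9 paralogs, here meaning a second gene whose product resembles a standard ribosomal protein. The probes of RPL10 and RPL3L were detected on too few arrays to be kept. The remaining genes that fit the rule, RPSA and RPLP0 among them, were not analysed here.

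Cells of 3 lines from colorectal cancers were compared (HCT116, LS174T, SW480), and the labels name no added allele or transgene. Each received either ethanol alone or 50 nM calcitriol, which is vitamin D in its hormone form, for 16 h, and every treatment was made in medium with charcoal-treated serum. There were 3 arrays in each of the 6 groups, 18 Illumina HT-12 BeadChips in all. The labels number the replicates without saying that they came from separate cultures, so each p-value reflects the spread among these arrays alone, and that spread may be technical. Each line is a single established line, so a difference between lines is a difference between these 3 lines.

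The standard ribosomal proteins are made in equal numbers, one of nearly every kind per ribosome, and their mRNAs are among the most abundant of a growing cell. Those mRNAs begin with a C followed by a run of pyrimidines at their first bases, the 5′ terminal oligopyrimidine (TOP) tract, through which mTOR and the RNA-binding protein LARP1 control how heavily they are translated. A few ribosomal proteins have paralogs used in particular tissues, such as RPL39L and RPL10L in spermatogenic cells of the mouse. Several others, RPL5 and RPL11 among them, bind MDM2 when ribosome assembly is disturbed and so stabilise p53.

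The sequence around the transcription start is shown for 3 standard genes beside their paralogs and for 4 standard genes whose levels differed between the lines, because the start carries the tract. The windows are RefSeq promoter entries on GRCh38.p14, from 40 bases before to 20 bases after the annotated start, written 5′ to 3′ on the gene's own strand. Capitals mark the longest run of C followed by at least 4 further C or T that begins within 10 bases of the start. Where a gene had several entries, the one with the longest tract was taken, or the first listed where none had one.
RPL22, chr1:6199576-6199635, minus strand: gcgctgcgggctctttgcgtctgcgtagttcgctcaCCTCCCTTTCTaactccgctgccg
RPL22L1, chr3:170870176-170870235, minus strand: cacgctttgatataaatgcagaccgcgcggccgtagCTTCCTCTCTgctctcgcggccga
RPS27, chr1:153990722-153990781, plus strand: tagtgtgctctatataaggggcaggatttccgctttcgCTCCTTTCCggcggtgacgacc
RPS27L, chr15:63157458-63157517, minus strand: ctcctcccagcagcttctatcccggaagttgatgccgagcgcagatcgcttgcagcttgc
RPL26, chr17:8383174-8383233, minus strand: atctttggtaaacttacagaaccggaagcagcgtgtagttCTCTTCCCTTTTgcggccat
RPL26L1, chr5:172958689-172958748, plus strand: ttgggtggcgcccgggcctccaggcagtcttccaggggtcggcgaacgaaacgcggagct
RPS7, chr2:3575220-3575279, plus strand: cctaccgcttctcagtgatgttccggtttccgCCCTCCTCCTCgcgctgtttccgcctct
RPL36A, chrX:101390971-101391030, plus strand: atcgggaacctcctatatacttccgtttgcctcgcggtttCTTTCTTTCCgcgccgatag
RPL13A, chr19:49487568-49487627, plus strand: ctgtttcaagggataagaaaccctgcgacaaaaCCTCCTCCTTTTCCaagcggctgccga
RPL14, chr3:40457299-40457358, plus strand: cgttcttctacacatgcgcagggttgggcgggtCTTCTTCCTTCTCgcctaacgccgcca

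Of the 76 genes, 65 had an entry in the RefSeq promoter table. A tract as defined above lay at the start of 55 of these 65 genes, 84.6%, against 10494 of 27305 genes in the whole table, 38.4%. Among the paralogs 3 of 8 had one: RPL22L1, RPL36AL and RPS4Y1 did, whereas RPL26L1, RPL7L1, RPL10L, RPS27L and RPS4Y2 did not. The standard genes without one at the annotated start were RPL17, RPL27, RPL6, RPS29 and RPS4X. Counted per start, the tract was present at 59 of 75 member starts and 33.5% of all 35116. In the whole entries of 300 bases, searched on both strands, CCGGAAG, the core bound by ETS factors, occurred in 34.7% of member starts and 10.3% of all starts. Its reverse strand reads as a short pyrimidine run, so it can overlap the tract. AAGATGGC, the core of the YY1 motif, occurred in 9.33% and 2.89%, and TATAAA in 8.0% and 11.5%. The mitochondrial ribosomal protein genes, described below, had CCGGAAG and AAGATGGC in larger shares of their starts.

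The array reads each transcript with bead-bound probes, and the values are log2 intensities after background correction and quantile normalization, one probe per gene. Between 19295 and 21028 probes were detected on an array, and replicate arrays correlated at 0.991 to 0.994. For the ribosomal protein genes the SD between replicates had a median of 0.064 to 0.087 in the 6 groups, below the 0.12 to 0.13 over all genes. All 3 lines gave the epithelial markers EPCAM, CDH1 and KRT8 above background, VIL1 was not detected in HCT116, and CDX1 was not detected in HCT116 or SW480. Of 8 fibroblast markers, 4 to 6 were not detected in each group, but PDGFRB was detected on all SW480 arrays (mean 9.78 in ethanol), COL1A1 on all HCT116 and SW480 arrays and LUM on all LS174T arrays. Of the leukocyte markers, CD68 was detected on every array and CD14 and LYZ in every group, whereas CD3E was detected on none. Of 4 endothelial markers, PECAM1 and CDH5 were detected on no array, VWF on single arrays, and KDR on all 3 LS174T calcitriol and 2 SW480 ethanol arrays. The part of these genes in the results was not tested.

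Most of the 76 probes lay near the top of the range of the array. Means over all 18 arrays ran from 5.11 for RPL10L to 14.39 for RPL41, which encodes the smallest ribosomal protein, and 72 of the 76 were detected on every array. Of the 231 genes with a mean above 13, 53 were ribosomal protein genes, as were 39 of the 100 brightest genes. Brightness depends on the probe as well as the transcript, so these counts do not rank transcripts. Quantile normalization gives every array the same highest value, 14.62, and the elongation factor gene EEF1A1 stood at that value on every array of 4 groups. How far differences are compressed near this ceiling was not tested.

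The question of the first comparison was how far the 3 lines differed in these genes before calcitriol. Bright ribosomal protein genes were seldom called. Most of those with a mean of 13 or less were called, as were most other genes at that level. LS174T differed from HCT116 in 29 of 76 genes, 7 higher and 22 lower, where 60.4% of all genes differed (31.1% higher, 29.3% lower). SW480 differed from HCT116 in 32, 7 higher and 25 lower, against 64.4% of all genes (32.8% higher, 31.6% lower). SW480 differed from LS174T in 24, 11 higher and 13 lower, against 63.8% of all genes (31.9% higher, 32% lower). A gene was called at a Benjamini-Hochberg adjusted p below 0.05 in limma, over all 13712 genes. Arrays of the lines did not overlap for 39, 39 and 33 of the 76 genes, where this held for 64.6%, 68.1% and 67.9% of all genes. These counts include RPL10L, RPL22L1 and RPS4Y2, which passed the detection filter only through the line in which they are high. Fewer cells and less RNA per cell cannot be told apart in such bulk samples.

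The median absolute difference was 0.13, 0.14 and 0.13 log2 over the ribosomal protein genes in these 3 comparisons and 0.44, 0.50 and 0.50 over all genes. The signed medians were -0.089, -0.093 and -0.014, with all genes at 0.016, 0.013 and -0.0051. A test of any difference among the 3 lines called 36 of 76, against 79.7% of all genes. Called genes of the large subunit numbered 17, 17 and 10 of 40, and those of the small subunit 6, 10 and 8 of 25. Paralogs were called in 6, 5 and 6 of 9 cases, and the stalk genes in none, against 60.4%, 64.4% and 63.8% of all genes. Among these paralogs are RPL10L, RPL22L1 and RPS4Y2, which the filter admitted through their high line alone. RPLP1 and RPLP2, which carry the acidic stalk that recruits elongation factors, had differences from -0.13 to 0.11. RPL41 differed by -0.05 to 0.00, and its 18 arrays lay between 14.30 and 14.48.

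Of the 23 ribosomal protein genes with a mean of up to 13, 18, 18 and 17 were called in the 3 comparisons, and of the 53 above 13, 11, 14 and 7. Of the 13458 other genes with a mean of up to 13, 60.8%, 64.7% and 64.2% were called. The 23 include RPL10L, RPL22L1 and RPS4Y2, which the filter admitted through their high line alone. The other genes above 13 were called in 76, 94 and 84 of 178 cases, and no test of these shares was made. Among genes with a mean between 13 and 14, 11, 13 and 7 of the 44 ribosomal protein genes were called in the 3 comparisons, as were 72, 90 and 83 of the 165 other genes. The median standard errors there were 0.084 and 0.085. In the test of any difference among lines, 14 of these 44 passed and 116 of the 165. Above 14 the test passed 0 of 9 ribosomal protein genes and 5 of 13 others. At lower levels it passed 6 of 6 ribosomal protein genes with a mean of up to 8, among them the 3 that the filter admitted through their high line alone, both of those between 8 and 10, all 10 between 10 and 12 and 4 of 5 between 12 and 13, where 70.2%, 91.5%, 91.7% and 87.6% of other genes passed.

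**Figure D1:**
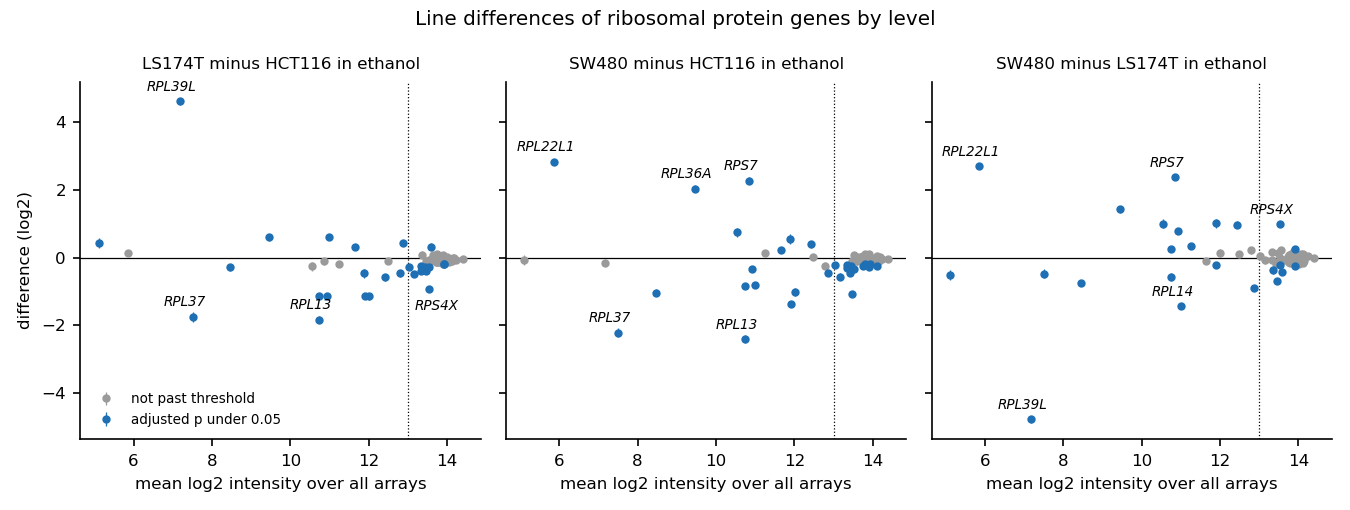
Difference between lines in ethanol (vertical axis, log2, bars are standard errors) against the mean log2 intensity over 18 arrays for 74 ribosomal protein genes, leaving out the Y-linked RPS4Y1 and RPS4Y2. Blue points had a limma adjusted p under 0.05. The dotted line marks a mean of 13. Of the 44 genes between 13 and 14, 11, 13 and 7 were called, while RPL39L, RPL22L1, RPS7 and RPL36A stand out at lower levels.

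RPL39L had the largest difference among the standard genes and paralogs in 2 of the 3 comparisons. It is a paralog of RPL39, which lines the exit tunnel of the large subunit. In ethanol it read 10.40, 10.37 and 10.25 in LS174T, 5.64, 5.78 and 5.71 in HCT116, and 5.59, 5.67 and 5.43 in SW480. All 6 LS174T arrays, calcitriol included, lay at 10.25 or above, and no array of the other lines exceeded 5.78. LS174T was 24.7-fold above HCT116 (4.63 ± 0.10 SE log2, n = 3 per group, limma adjusted p = 6.87e-16) and 27.4-fold above SW480. Both lower lines lay near the edge of background. There the probe was detected on all 3 ethanol arrays of each line, but on 2 HCT116 and 1 SW480 calcitriol arrays. The folds are therefore uncertain in size. Without background correction the differences were 2.92 log2 for LS174T minus HCT116 and -2.96 for SW480 minus LS174T. A second probe, detected on 6 of the 18 arrays, had a mean of 10.08 in LS174T in ethanol. RPL39 itself, at 13.64 to 13.90 on all arrays, differed from HCT116 in ethanol by -0.02 in LS174T and -0.16 in SW480, neither past the threshold.

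SW480 had less RPL22 than HCT116 and was the line in which RPL22L1 was detected. RPL22 is an RNA-binding protein of the large subunit, and in mice it represses its paralog RPL22L1. RPL22 read 12.66, 12.72 and 12.72 in HCT116 in ethanol, 11.75, 11.51 and 11.42 in LS174T, and 11.39, 11.37 and 11.29 in SW480. HCT116 was above both other lines on every array. LS174T was 2.21-fold lower (-1.14 ± 0.08 log2, limma adjusted p = 3.91e-09) and SW480 2.55-fold lower (-1.35, adjusted p = 3.71e-10). SW480 minus LS174T was -0.21 (adjusted p = 0.0362).

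RPL22L1 was detected in SW480 alone, on 6 of 6 arrays, and on none of the 12 arrays of HCT116 and LS174T. SW480 in ethanol read 7.55, 7.63 and 7.45. For a bound, the other lines were set at the lowest signal with a detection p below 0.05 on each array. SW480 was then at least 4.31-fold above HCT116 and at least 4.26-fold above LS174T in ethanol, and at least 7.35-fold and 7.19-fold in calcitriol. The detection filter admitted the gene through these SW480 arrays alone, so its higher level there is a description. Without background correction the measured differences in ethanol were 1.16 and 1.08 log2. HCT116 and LS174T, which differed in RPL22, both had RPL22L1 at background. Both genes carry a tract at the start, as printed above.

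RPS7 separated SW480 from the other lines. Its product is a small-subunit protein that binds MDM2. SW480 read 12.61, 12.23 and 12.44 in ethanol, HCT116 10.24, 10.02 and 10.17, and LS174T 10.01, 10.12 and 9.99. The SW480 arrays did not overlap those of either other line, and the differences were 2.28 ± 0.10 log2 (4.87-fold, adjusted p = 4.31e-12) and 2.39 (5.24-fold). A second RPS7 probe gave 2.42 and 2.46. HCT116 and LS174T differed by -0.10, with an adjusted p of 0.386.

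RPL36A, an X-linked large-subunit gene whose autosomal copy is RPL36AL, was lowest in HCT116 and highest in SW480. It read 8.61, 8.50 and 8.58 in HCT116, 9.23, 9.21 and 9.08 in LS174T, and 10.64, 10.52 and 10.66 in SW480, with no overlap. SW480 was 4.11-fold above HCT116 (2.04 ± 0.10 log2, adjusted p = 2.52e-11) and 2.70-fold above LS174T. LS174T was 1.52-fold above HCT116 (0.61 log2, adjusted p = 6.85e-05). With the mean of a gene's probes these differences were 0.91, 0.76 and 0.15, the last not past the threshold (adjusted p = 0.361). A second, dim RPL36A probe, detected on 4 arrays at a mean of 5.13, read -0.31 in LS174T and -0.22 in SW480 against HCT116. RPL36AL differed by -0.02 to 0.04 between lines, not past the threshold.

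**Figure D2:**
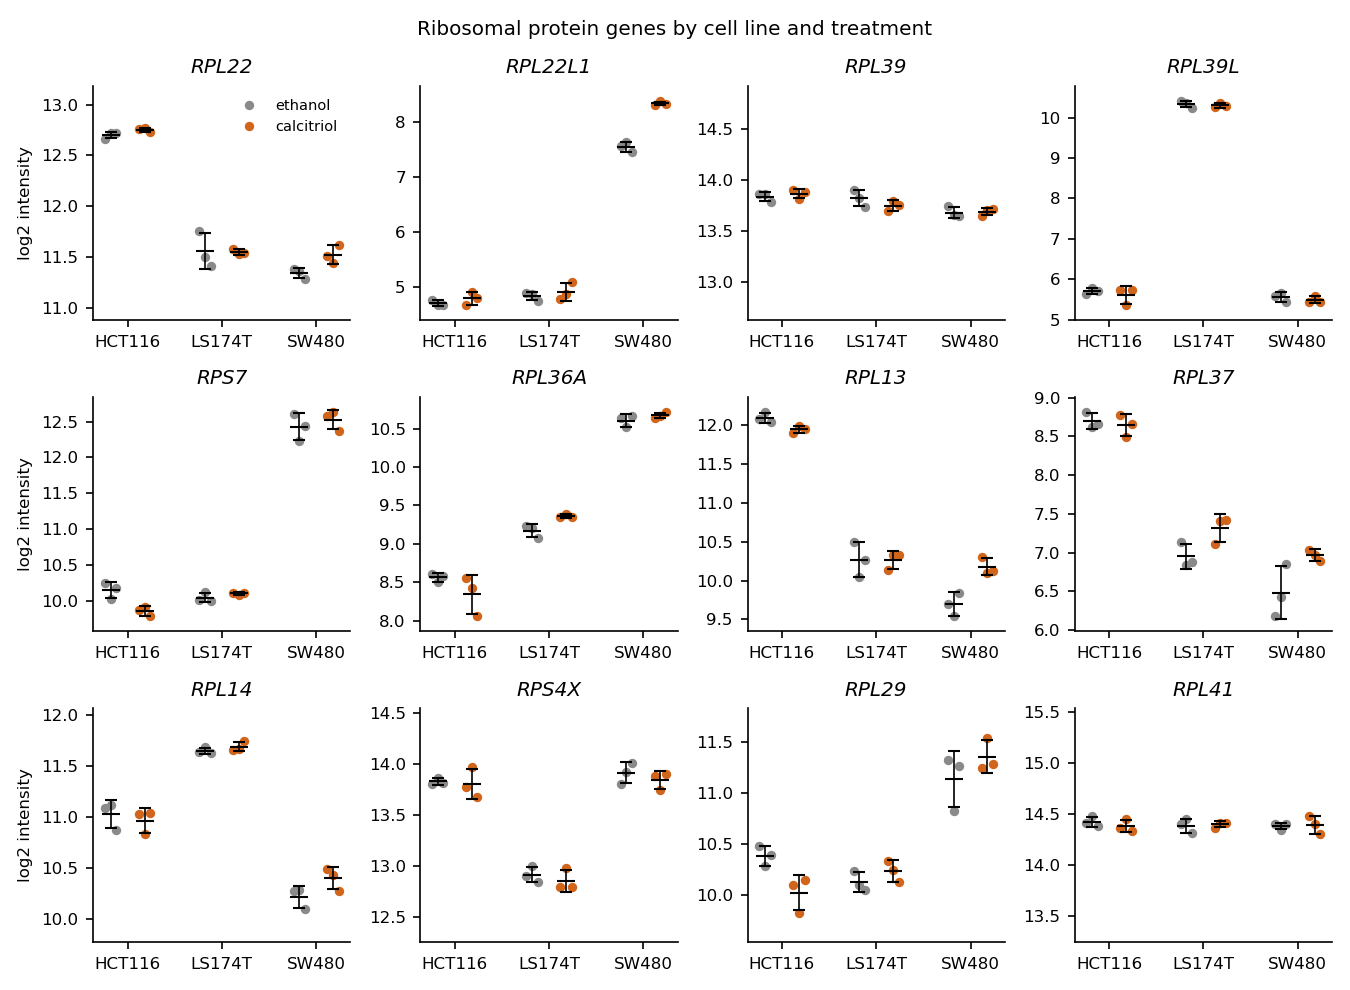
Log2 intensity of 12 ribosomal protein genes on each array, by cell line and treatment (grey, ethanol; orange, calcitriol), with the mean and SD of 3 arrays. Vertical ranges differ between panels and span at least 2 log2 units. RPL39L is high in LS174T alone, RPL22L1 and RPS7 in SW480 alone and RPL22 in HCT116, while RPL39 and RPL41 stay within a narrow band.

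RPL13 and RPL37, both of the large subunit, stood high in HCT116. RPL13 read 12.08, 12.17 and 12.04 there in ethanol, 10.50, 10.05 and 10.26 in LS174T, and 9.70, 9.54 and 9.85 in SW480. The lines did not overlap. LS174T was 3.54-fold below HCT116 (-1.83 ± 0.11 log2, adjusted p = 3.72e-10), SW480 was 5.28-fold below it (-2.40, adjusted p = 9.32e-12), and SW480 minus LS174T was -0.57. A second RPL13 probe, at a mean of 8.67, read -0.04 and -0.21 in the comparisons with HCT116, and the mean of both probes -0.93 and -1.31. RPL37, whose product also binds MDM2, read 8.81, 8.62 and 8.65 in HCT116, 7.14, 6.84 and 6.87 in LS174T, and 6.18, 6.42 and 6.85 in SW480. HCT116 was above both without overlap, with differences of -1.74 for LS174T and -2.21 for SW480 (adjusted p = 2.18e-08 and 8.69e-10), and the LS174T and SW480 arrays overlapped at -0.47 (adjusted p = 0.00973). Without background correction the RPL37 differences from HCT116 were -1.08 and -1.28.

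Other genes that were lower outside HCT116 differed by less. RPL7, an RNA-binding protein of the large subunit, differed by -1.14 log2 in LS174T and -1.01 in SW480, from arrays at 12.65 to 12.72 in HCT116. RPS23, a small-subunit protein next to the decoding centre, read 11.38, 11.34 and 11.42 in HCT116, 10.27, 10.28 and 10.24 in LS174T and 10.54, 10.50 and 10.56 in SW480. Its groups did not overlap, and LS174T minus HCT116 was -1.12 ± 0.06 log2 (adjusted p = 1.27e-10). RPL23A, near the exit of the tunnel, differed by -1.12 in LS174T and -0.34 in SW480.

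RPL13A and RPL28 were lowest in SW480. RPL13A, which outside the ribosome takes part in translational silencing of inflammatory mRNAs, read 13.89, 13.87 and 13.92 in HCT116, 13.51, 13.58 and 13.45 in LS174T, and 12.73, 12.88 and 12.90 in SW480. The lines were apart, with SW480 2.08-fold below HCT116 (-1.06 ± 0.08 log2, adjusted p = 2.76e-09) and at -0.68 against LS174T. RPL28 differed by -1.03 from HCT116 and -0.75 from LS174T in SW480.

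RPL14, a large-subunit protein found in eukaryotes, was highest in LS174T. Its probe read 11.09, 11.12 and 10.87 in HCT116, 11.64, 11.69 and 11.63 in LS174T, and 10.28, 10.29 and 10.10 in SW480. No array of one line overlapped another, and SW480 was 2.70-fold below LS174T (-1.44 ± 0.09 log2, adjusted p = 4.82e-10) and at -0.81 against HCT116. LS174T minus HCT116 was 0.63 on this probe (adjusted p = 1.54e-05) but -0.59 on a second RPL14 probe of similar brightness, so the direction of that difference depended on the probe. With the mean of both probes it was 0.02, with an adjusted p of 0.873.

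RPL29, known as a heparin-binding protein at the cell surface as well, was highest in SW480. It read 11.32, 10.83 and 11.27 there, 10.48, 10.28 and 10.40 in HCT116, and 10.24, 10.10 and 10.05 in LS174T. SW480 was above both lines without overlap, by 0.75 log2 over HCT116 (adjusted p = 7.76e-05) and 1.01 over LS174T (adjusted p = 3.38e-06). A second RPL29 probe gave 0.90 and 1.11. RPS21, a small-subunit gene, showed 0.40 and 0.98 in the same comparisons.

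RPS4X, the X-linked small-subunit gene, was low in LS174T. It read 12.92 ± 0.08 there (SD, n = 3), 13.81, 13.87 and 13.82 in HCT116, and 13.81, 13.93 and 14.01 in SW480. LS174T lay below both without overlap. It was 1.89-fold below HCT116 (-0.92 ± 0.09 log2, adjusted p = 1.90e-07), and SW480 minus LS174T was 1.00 (adjusted p = 5.00e-08). A second RPS4X probe gave -0.64 and 0.84. RPS3A was 0.32 higher in LS174T than in HCT116 (adjusted p = 0.0117) on its brightest probe, and 0.14 and -0.01 on the other probes.

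The Y-linked paralogs RPS4Y1 and RPS4Y2 resemble RPS4X and each other closely, so their values are uncertain: whether a probe also reads a related transcript was not tested. RPS4Y1 had a mean of 9.80 in HCT116 in ethanol, 6.05 in LS174T and 6.35 in SW480. LS174T was 13.4-fold and SW480 10.9-fold lower (-3.75 and -3.45 log2, adjusted p = 2.16e-13 and 7.14e-13), and the arrays did not overlap. Without background correction these were -2.33 and -2.22. RPS4Y2 was above background in HCT116 only, where its mean was 7.13, at least 3.21-fold above LS174T and at least 3.29-fold above SW480. Without background correction both differences from HCT116 were -0.76 log2. The filter admitted it through HCT116 alone.

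RPS27L and RPL7L1 were the other paralogs with clear line differences. RPS27L is a p53-induced relative of RPS27. It read 13.31, 13.31 and 13.35 in LS174T, 12.91, 12.96 and 12.82 in HCT116, and 12.39, 12.43 and 12.49 in SW480. The 3 lines were apart, with LS174T at 0.43 log2 against HCT116 (adjusted p = 7.83e-05) and SW480 at -0.46 (adjusted p = 3.29e-05). RPS27 itself was called in SW480 against HCT116 only, at -0.25 (adjusted p = 0.0213). RPS27L has no tract at its printed start and RPS27 does.

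RPL7L1, a relative of RPL7 that takes part in assembly of the large subunit, read 12.65, 12.30 and 12.38 in SW480, 11.70, 11.90 and 12.05 in HCT116, and 11.21, 11.27 and 11.79 in LS174T. SW480 stood above the others, by 0.56 log2 (adjusted p = 0.00236) and 1.02 (adjusted p = 7.71e-06), while the arrays of HCT116 and LS174T overlapped. RPL26L1 was 0.35 higher in SW480 than in LS174T (adjusted p = 0.00197), and 0.05 on a second probe. RPL26 differed from HCT116 by -0.38 in LS174T and -0.21 in SW480. RPL10L stayed near background and was detected on 3 arrays, all of LS174T, where it read 5.07, 5.48 and 5.51 in ethanol, so no difference from the other lines could be measured. RPL3, at the peptidyl transferase centre, was called in SW480 against HCT116 only, at -0.19 (adjusted p = 0.0372).

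Line differences were largely present under calcitriol too. In calcitriol 26, 25 and 23 genes were called in the 3 comparisons, where 60.6%, 65.1% and 62.6% of all genes were. Of these 7, 7 and 14 were higher, against 30.9%, 32.9% and 31.8% of all genes, and 19, 18 and 9 were lower, against 29.8%, 32.2% and 30.9%. Arrays of the lines did not overlap for 35, 33 and 30 genes, against 64.7%, 68.4% and 66.8%. Of the 29, 32 and 24 genes called in ethanol, 24, 23 and 17 were called with the same sign in calcitriol, 82.8%, 71.9% and 70.8% of the ethanol calls and 92.3%, 92% and 73.9% of the calcitriol calls. These are separate arrays of the same 3 lines. The overlap was not worked out for all genes, so whether these shares are high or low for the series cannot be said.

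For 35 of the 76 genes the array carried 47 further, dimmer detected probes. Their median absolute difference between lines in ethanol was 0.23, 0.27 and 0.26 log2 in the 3 comparisons, and 0.11, 0.13 and 0.088 on the probes used for the same genes. Differences of at least 1 log2 were found on 4, 10 and 11 of the 47 probes and on 2, 3 and 6 of the 35, as a description without a test. Where a called gene had several, all of its probes had the same sign for 6 of 10 genes in LS174T against HCT116, 10 of 13 in SW480 against HCT116 and 11 of 12 in SW480 against LS174T. The genes whose probes disagreed were RPL14, RPL36, RPL36A and RPS3A in the first, RPL36, RPL36A and RPS24 in the second and RPS24 in the third. The further RPL36A probe was detected on 4 arrays only, so its sign carries little weight. The annotation does not say which transcripts each probe reads.

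Large differences appeared on dim probes of genes whose bright probe was flat. RPS26, a small-subunit protein at the mRNA exit, differed by 0.02 between SW480 and HCT116 on the probe used (12.52 ± 0.10 SD against 12.50 ± 0.15, n = 3) and by 3.20 on a dimmer one (10.16 ± 0.11 against 6.96 ± 0.10). RPS29 had 3 bright probes that read -0.03 to 0.08 in the same comparison and 1 dimmer probe at -3.69 (8.08 ± 0.30 against 11.77 ± 0.13). These genes were examined because of their values, so the differences are given without a test.

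A further 4 genes showed the same contrast between probes and were also chosen after their values were seen. RPL37A read 0.12 between LS174T and HCT116 on the probe used and -1.82 on a dimmer probe. A dimmer RPL6 probe read 1.45 and a dimmer RPS15 probe 1.46 in SW480 against HCT116, where the probes used read -0.06 and -0.01. Of 3 dimmer RPL32 probes, 2 read -1.77 and -1.64 and the other 0.37, against -0.10 on the probe used.

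**Figure D3:**
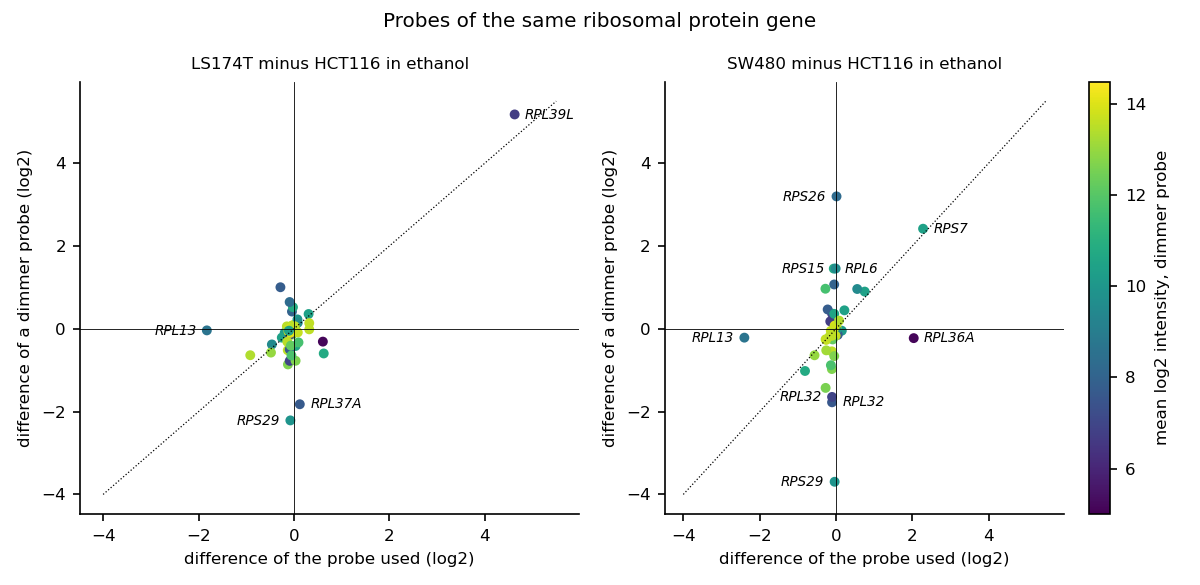
Line difference in ethanol on each of 47 dimmer detected probes (vertical axis, log2) against the difference on the probe used for the same gene (horizontal axis, log2), coloured by the dimmer probe's mean log2 intensity. Probes on the dotted diagonal give equal differences. RPS7 lies near it, whereas RPS26 at 3.20 and RPS29 at -3.69 lie far from it.

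The second comparison asked what calcitriol did to these genes in each line. Few of them passed the test, and few of all genes did. In HCT116 0 of 76 passed the limma threshold, where 0.0729% of all genes did (0.0511% higher, 0.0219% lower), and 5 had an unadjusted p below 0.05. In LS174T 0 of 76 passed, against 6.05% of all genes (2.81% higher, 3.24% lower), and 3 had an unadjusted p below 0.05. In SW480 3 passed, all higher, against 2.46% of all genes (0.788% higher, 1.68% lower), and 8 had an unadjusted p below 0.05. Averaged over the lines 1 gene passed, RPL22L1, which was higher, against 2.73% of all genes (1.31% higher, 1.42% lower).

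The differences were small throughout. Medians over the 76 genes were -0.030 log2 in HCT116, 0.012 in LS174T and 0.034 in SW480, with all genes at 0.0024, -0.017 and -0.0070. Positive differences numbered 26, 40 and 53 of 76, and 6946, 6352 and 6658 of 13712 over all genes. The median absolute difference was 0.053, 0.050 and 0.067, against 0.11, 0.13 and 0.13. The median standard error of 0.088 gives an unadjusted 95% interval of 0.187 to each side for a single gene, with 3 arrays per group. Passing the adjusted threshold over all genes took larger changes. Changes beyond that width may therefore also have gone uncalled. Arrays of the 2 treatments did not overlap for 13, 7 and 12 of the genes, where 15.5%, 23.5% and 22.1% of all genes did not.

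**Figure D4:**
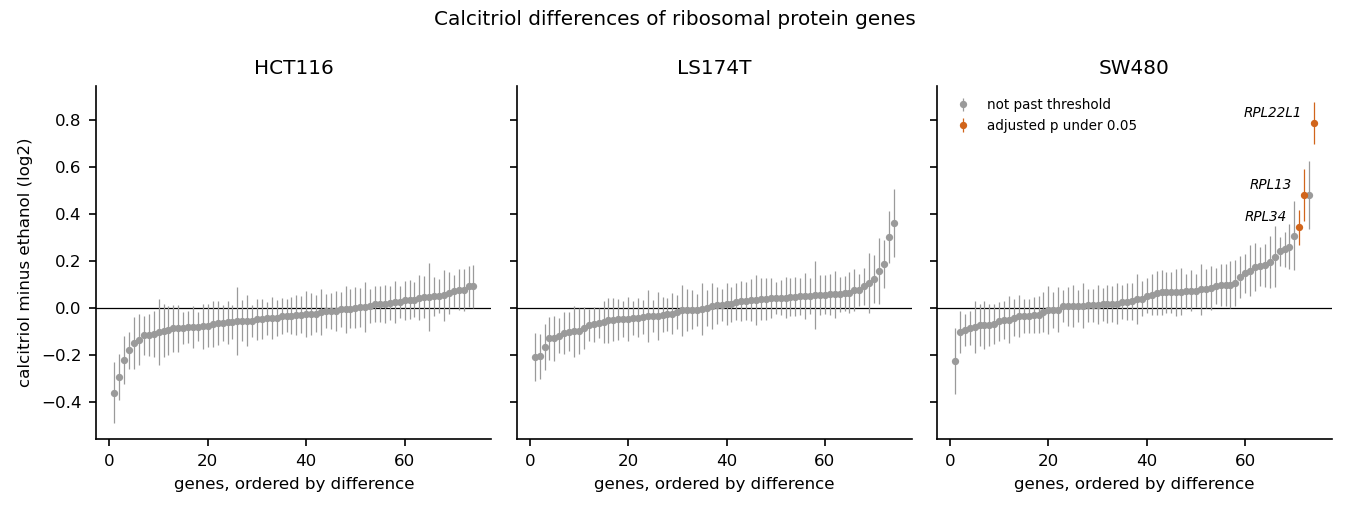
Calcitriol minus ethanol (log2, bars are standard errors) for 74 ribosomal protein genes in each line, ordered by size and without the Y-linked RPS4Y1 and RPS4Y2. Orange points passed a limma adjusted p of 0.05: RPL22L1, RPL34 and RPL13 in SW480, and none in HCT116 or LS174T.

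RPL22L1 rose in SW480. It went from 7.55, 7.63 and 7.45 in ethanol to 8.31, 8.37 and 8.32 in calcitriol, with no overlap, a difference of 0.79 ± 0.09 SE log2 or 1.73-fold (n = 3 per group, limma adjusted p = 0.000224). In HCT116 and LS174T it was not above background in either treatment, at 4.67 to 4.91 and 4.75 to 5.09, so no response could be measured there. The average over the 3 lines was 0.32 log2 (adjusted p = 0.00223), of which SW480 is the one line with the probe above background. RPL22, in the same SW480 arrays, differed by 0.18 (adjusted p = 0.297).

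RPL13 and RPL34 also rose in SW480, by less and with less stable calls. RPL13 read 9.70, 9.54 and 9.85 in ethanol and 10.31, 10.10 and 10.13 in calcitriol, apart by 0.48 ± 0.11 log2 (adjusted p = 0.0314). A second RPL13 probe gave 0.32. RPL34, a large-subunit protein, read 11.72, 11.58 and 11.63 in ethanol and 12.01, 11.99 and 11.96 in calcitriol, apart by 0.34 ± 0.07 (adjusted p = 0.0223), with 0.21 on a second probe. Leaving out 1 array ended the call of RPL13 in 5 of 18 fits, with an adjusted p of up to 0.153, and of RPL34 in 4 of 18. The arrays concerned were all of SW480: each except ethanol replicate 3 for RPL13, and ethanol replicates 2 and 3 and calcitriol replicates 1 and 2 for RPL34.

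Calcitriol responses that differed among the lines were called for 2 genes, RPL22L1 and RPL13, against 5.55% of all genes. For RPL22L1 the test (adjusted p = 0.00407) sets SW480 against lines in which the probe was at background, and neither call held under median scaling. RPL13 had an adjusted p of 0.0467, with responses of -0.15 in HCT116, 0.00 in LS174T and 0.48 in SW480. The next genes were RPS23 and RPL34, at adjusted p of 0.0555 and 0.0628, which did not pass. The SW480 response of RPS23 was 0.24 (adjusted p = 0.0527), with ethanol arrays at 10.54, 10.50 and 10.56 and calcitriol arrays at 10.82, 10.74 and 10.76.

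Genes at the ends of the range in the other lines did not pass. In HCT116 the highest difference was 0.10 for RPS4Y1, and RPL22L1, next in order, was at background. The lowest in HCT116 were -0.36 for RPL29 (adjusted p = 0.332) and -0.53 for RPS4Y2 (adjusted p = 0.166). RPS7 differed there by -0.29 (adjusted p = 0.306), from 10.24, 10.02 and 10.17 to 9.86, 9.91 and 9.78, and by -0.28 on its second probe. In LS174T the highest were 0.36 for RPL37 (adjusted p = 0.180) and 0.30 for RPL7 (adjusted p = 0.133), and the lowest were -0.21 for RPL8 and -0.21 for RPS3A. RPL37 differed by 0.48 in SW480 as well (adjusted p = 0.0936).

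Some genes that were low in SW480 had positive calcitriol differences there, and the following were picked after their values were seen. RPL13, RPL37, RPL13A, RPL28 and RPS23 differed by -2.40, -2.21, -1.06, -1.03 and -0.85 log2 between SW480 and HCT116 in ethanol. Their SW480 calcitriol differences were 0.48, 0.48, 0.25, 0.26 and 0.24, of which RPL13 alone passed. Both sets of values use the same 3 SW480 ethanol arrays. Not every gene low in SW480 rose: RPL7, also lower there than in HCT116, had SW480 means of 11.67 in ethanol and 11.59 in calcitriol. The median of the 76 genes on an array was 13.58 to 13.65 in SW480 in ethanol and 13.68 to 13.71 in calcitriol, without overlap. In HCT116 these ranges were 13.71 to 13.72 and 13.70 to 13.72, and in LS174T 13.64 to 13.69 and 13.58 to 13.66. In SW480 the array medians of all genes did not overlap either, at 7.911 to 7.920 in ethanol and 7.902 to 7.908 in calcitriol. Those of the mitochondrial ribosomal protein genes, described below, were also apart, at 10.87 to 11.00 and 11.02 to 11.06. Under median scaling in place of quantile normalization, the median calcitriol difference in SW480 was 0.090 for these genes and -0.091 for all genes.

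Other TOP mRNAs gave no call under calcitriol within a line. Of 23 listed elongation factors, initiation factors and other TOP mRNAs, 22 were measured. In HCT116, LS174T and SW480 0 passed, where 0.0729%, 6.05% and 2.46% of all genes did. With shares this low, 0 of 22 does not set these genes apart. An unadjusted p below 0.05 was found for 1, 1 and 2 of them. The response of HNRNPA1 was called as differing among the lines (adjusted p = 0.0226). Between lines 15 of the 22 were lower and 2 higher in LS174T than in HCT116, and 12 lower and 3 higher in SW480, where 29.3% and 31.6% of all genes were lower and 31.1% and 32.8% higher, with medians of -0.33 and -0.27. EIF3H, a subunit of the initiation factor eIF3, differed by -0.83 and -1.19 log2, and EIF4A2, an RNA helicase of initiation, was called lower in both lines, at -0.82 in LS174T. In SW480 against LS174T 5 were higher and 5 lower, where 31.9% and 32% of all genes were.

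Among genes that act on the ribosome or on its mRNAs, single members passed under calcitriol. Of all genes, 0.0729%, 6.05% and 2.46% passed in HCT116, LS174T and SW480. Of 6 measured ribosome-associated genes, EFL1, the GTPase that helps release eIF6 from the new large subunit, rose with calcitriol in LS174T by 1.24 ± 0.11 log2 (adjusted p = 1.80e-06) and differed by 0.56 in HCT116 and 0.42 in SW480, not past the threshold (adjusted p = 0.0853 and 0.0579). EIF6 was 0.85 higher in SW480 than in HCT116 and 0.82 higher than in LS174T. Of 20 measured regulators, MYCN, a MYC family factor, fell by 1.04 in LS174T and by 0.64 in SW480 with calcitriol and was not detected in HCT116. TSC1, an inhibitor of mTOR signalling, fell by 0.32 in LS174T (adjusted p = 0.0375). MYC differed with calcitriol by -0.06, 0.05 and 0.15 in HCT116, LS174T and SW480, with no call. Between lines in ethanol 6 of the regulators were higher and 8 lower in LS174T than in HCT116, and 6 higher and 7 lower in SW480, 14 and 13 of 20 in all, where 60.4% and 64.4% of all genes were called.

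Of 14 measured p53 targets and partners, GDF15 rose with calcitriol in LS174T by 1.57 log2 (adjusted p = 1.77e-06), and no other passed in any line. The shares of all genes that passed were 0.0729% in HCT116, 6.05% in LS174T and 2.46% in SW480. Between lines 2 were higher and 5 lower in LS174T than in HCT116, and 1 higher and 6 lower in SW480, 7 of 14 in each case, where 60.4% and 64.4% of all genes were called.

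The mitochondrial ribosomal protein genes, which build the separate ribosome of mitochondria, were measured in 76 of 77 cases. Between the lines 49, 61 and 57 of them were called, where the cytosolic set had 29, 32 and 24 of 76 and all genes 60.4%, 64.4% and 63.8%. The difference between the sets was not tested. LS174T was higher than HCT116 in 33 and lower in 16, where 31.1% and 29.3% of all genes were. SW480 was higher than HCT116 in 46 and lower in 15, against 32.8% and 31.6% of all genes. Medians were 0.17 and 0.35 log2, where the cytosolic set had -0.089 and -0.093. Calcitriol gave 1 call in this set, MRPS10 in LS174T, higher by 0.35 (adjusted p = 0.00934). Calls over all genes came to 0.0729% in HCT116, 6.05% in LS174T and 2.46% in SW480. In SW480 64 of the 76 were positive with a median of 0.11, and 0 passed in limma (15 at an unadjusted p below 0.05). At their starts 24 of 69 mitochondrial genes had a tract, 34.8%, against 84.6% of the cytosolic genes. Counted per start, CCGGAAG occurred in 38.8% of mitochondrial and 34.7% of cytosolic entries, AAGATGGC in 27.1% and 9.33%, and TATAAA in 3.53% and 8.0%. Array medians of the mitochondrial genes were 10.73 to 11.06 and those of the cytosolic genes 13.58 to 13.72, and the part of this difference in range in the counts was not tested.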

How the data were processed

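Total RNA from 3 cell lines was read on 18 single-colour BeadChips. The authors deposited raw probe intensity with a detection p-value for each probe, per the file headers: 47323 probes, plus 887 rows without an identifier that were left out. They also deposited log2 values, for which the submitters' processing notes name limma without a version. Those differed from the values computed here by a median of 0.000195 and at most 0.201, so they are background-corrected and quantile-normalized.

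Intensities were processed with neqc in limma 3.58.1 (R 4.3.3, offset 16). Probes detected at p below 0.05 on at least 3 of 18 arrays were kept (25586), and the brightest probe stood for each gene (13712 genes). One model of 6 group means was fitted with lmFit and eBayes to all arrays, with Benjamini-Hochberg adjustment over all genes, and was tested on simulated data. The number of arrays limits precision.

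The genes, the lists and the naming rule were chosen with earlier results of these data known. Named were the 6 highest and 6 lowest called genes with non-overlapping arrays per line comparison, up to 6 called either way per calcitriol comparison (or the 2 highest and 2 lowest), the 4 smallest p for differing responses, and all paralog pairs. Others are said to be chosen for their values or illustrate a list. Symbols were updated through Entrez identifiers to GRCh38.p14. Y-linked genes are given as group means. The alternatives tried were median scaling, no background correction, the deposited log2 values, other detection filters, the mean over a gene's probes, eBayes with trend and robust settings, array brightness as a covariate, a replicate block, fewer arrays in the fit and leaving out each array.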

Additional observations from a re-analysis of the deposited data

Results flagged for a closer look

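The limma test of differing calcitriol responses called RPL22L1 at an adjusted p of 0.00407. That test sets SW480 against lines at background, so it cannot show that the responses differ. The response was 0.79 log2 in SW480 (6 of 6 arrays above background, the groups apart). In HCT116 and LS174T the probe was above background on no array, so no response was measurable there. The calcitriol response of RPL13 differed among the lines with an adjusted p of 0.0467. Its responses were -0.15 in HCT116, 0.00 in LS174T and 0.48 in SW480, and the arrays of SW480 did not overlap between treatments. Neither gene kept this call under median scaling or with a replicate block.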

How the results depend on the processing

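Of 40 calls on named genes, 33 held under every alternative run, and none changed sign. Line counts stayed within 1.5 times, and leaving out 1 array gave 24 to 30, 26 to 31 and 21 to 26 calls in ethanol. Calcitriol counts were less stable, and the cause was not tested. RPL22L1 in SW480 held throughout, at 0.50 to 0.83 log2. In SW480 the 3 calls became 1 under median scaling, a replicate block and a fit to its 6 arrays, 5 without background correction and with trend and robust settings, and 1 to 3 without 1 array (1 without ethanol replicate 2 or calcitriol replicate 1 or 2). In LS174T 0 calls became 1 without background correction and with trend and robust settings, and 0 to 1 without 1 array (1 without ethanol replicate 3). The averaged count of 1 became 0 under median scaling, where RPL22L1 had an adjusted p of 0.0743, 0 among probes detected on all 18 arrays, where RPL22L1 was not tested, and 1 to 2 without 1 array (2 without SW480 ethanol replicate 3). The 2 differing responses became 0 under median scaling and the replicate block, 1 with no detection filter, the mean of probes or brightness as a covariate, 5 without background correction and with trend and robust settings, and 1 to 2 without 1 array (1 in 12 of the 18 fits). Replicate numbers are shared between treatments, and the labels do not say whether same-numbered arrays were paired. Their deviations correlated at -0.090 to 0.0012, so no shared deviation was seen, which cannot exclude pairing. RPL13 and RPL34 in SW480 lost their calls under median scaling, the block and the fit to its 6 arrays, and RPL13 also with brightness as a covariate. In LS174T against HCT116, RPL36A and RPS3A lost theirs under the mean of probes (0.15 and 0.15 log2), as did RPL14. RPS3A also lost its call under median scaling and without HCT116 ethanol replicate 2, and RPL10L without HCT116 ethanol replicate 1 or LS174T ethanol replicate 2 or 3. Median scaling moved the all-gene median to 0.20 in SW480 minus HCT116 and 0.12 in SW480 minus LS174T, where these genes had medians of -0.24 and -0.084. Sizes of dim genes depended on background correction, as given beside each.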
